A study of Mus musculus with 4 samples.

Results

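The spots described here are those that carried the strongest signal of the ovarian surface epithelium in tissue sections of mouse ovary: 207 of the 4191 spots in the deposited tables. They were chosen from measured values. Every spot with at least 1000 UMIs (unique molecular identifiers, each counting 1 captured mRNA molecule) was scored by the summed UMIs of Upk3b, Krt19, Lgals7 and Lhx9 per 10000 UMIs, and the top 5% of the 4134 spots that met this minimum, pooled over all sections, were kept. These 207 spots are called members below, and the 3927 others that met the minimum are called other spots.

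The sections came from outbred CD-1 females that had aged naturally, without any transgene or treatment, and were either young (3 to 4 months) or aged (15 to 16 months), with 4 animals per age. Frozen ovaries were cut at 10 µm, laid on Visium capture areas and permeabilised for 18 minutes. Visium records polyadenylated RNA at a grid of barcoded spots, so that a spot is a small region that can hold several cells of different types. Every capture area (4 in all, numbered 1 to 4 here) carried a section of each age, and the section of a spot was read from the side of the image that the labels give to each age.

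The ovarian surface epithelium is the single layer of flat to cuboidal cells that covers the ovary. It carries keratins and other epithelial proteins but also transcription factors of the gonadal ridge, from which it derives, and it is broken at each ovulation and repaired afterwards. It shares many markers, Upk3b among them, with the mesothelium that lines the body cavity, and the rule does not separate these linings from each other.

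Among the rule genes, Upk3b encodes a uroplakin, a membrane protein of urothelial and mesothelial surfaces (chromosome 5, 136038496 to 136046487). Krt19 encodes a keratin of simple epithelia (chromosome 11, 100140810 to 100148665). Lgals7 encodes a galectin (chromosome 7, 28863853 to 28866284). Lhx9 encodes a LIM homeobox factor needed for gonad formation (chromosome 1, 138825186 to 138848577). Coordinates are those of the GENCODE M21 annotation on mm10, and all of these genes are protein coding.

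To show the sequence next to 3 genes that were high together in members, the 250 bases before the start of a rule gene (Upk3b) and of the secreted factors Angptl7 and Rspo1 were taken from RefSeq (GRCm38.p6), 5′ to 3′ on the strand of the gene. They lie at chr5:136038246-136038495 on the plus strand, chr4:148500463-148500712 on the minus strand and chr4:124986180-124986429 on the plus strand. Capitals mark the only match, on either strand, to the 3 motifs searched, which were the GATAA core of GATA sites, the CCAAT box and the TATA box (TATAAA).
Upk3b: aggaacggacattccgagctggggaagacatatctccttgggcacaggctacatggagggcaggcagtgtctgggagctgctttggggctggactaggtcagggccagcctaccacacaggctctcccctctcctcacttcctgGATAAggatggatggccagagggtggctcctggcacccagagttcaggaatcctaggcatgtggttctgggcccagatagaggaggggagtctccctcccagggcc
Angptl7: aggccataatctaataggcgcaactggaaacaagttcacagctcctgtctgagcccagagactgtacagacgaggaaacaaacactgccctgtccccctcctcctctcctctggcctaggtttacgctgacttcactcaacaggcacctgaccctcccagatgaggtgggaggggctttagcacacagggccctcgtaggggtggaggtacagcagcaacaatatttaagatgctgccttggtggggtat
Rspo1: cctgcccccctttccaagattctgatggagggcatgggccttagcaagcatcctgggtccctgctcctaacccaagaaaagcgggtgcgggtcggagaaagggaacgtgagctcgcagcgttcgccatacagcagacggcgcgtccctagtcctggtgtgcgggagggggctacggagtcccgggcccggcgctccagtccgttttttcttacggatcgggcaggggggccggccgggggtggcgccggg
The match is 1 GATAA in the stretch before Upk3b. Of 32851 stretches of the same length, 22.6% held GATAA, 33.8% held CCAAT and 12.4% held TATAAA. The match is a description of these letters, and whether it is a binding site was not tested.

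The 4191 spots were the columns of the tables, and 57 of them fell below the UMI minimum. Sections held between 2773333 and 21619232 UMIs, and the members of a section between 115597 and 1174470. Members lay at a median of 24832 ± 7247 UMIs per spot in young and 13703 ± 6079 in aged sections (SD, n = 4 each), against 20343 ± 5603 and 12983 ± 2852 in other spots. Aged section 3 stood apart, with the lowest depth (a median of 5202 UMIs in its members) and the highest share of mitochondrially encoded UMIs in members, 5.50%. Barcodes mark array positions, so that pairs of areas had between 234 and 723 of them in common, which are not shared cells.

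The signal of the rule genes was strong in most members and thin in some. Members had a median of 15 UMIs of these genes (range 1 to 117). All 4 genes were seen in 128 members, 3 in 42, 2 in 26 and 1 in 11. A Krt19 UMI was present in 97.1% of members and 14.1% of other spots, a Upk3b UMI in 90.3% and 13.6%, a Lgals7 UMI in 82.6% and 12.4%, and a Lhx9 UMI in 68.6% and 6.49%. At the threshold, the lowest members scored 4.01, 4.02 and 4.03 UMIs per 10000 and the highest other spots 3.99, 3.95 and 3.94, while the median member scored 7.80 and the highest 62.0. Thus there was no gap at the threshold, and at least 1 rule UMI was found in 32.4% of other spots. In 33 members the rule genes gave fewer than 5 UMIs, and 21 of these lay in area 3, namely 9 in its young section and 12 in its aged section.

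Upk3b stood at 344, 263, 288 and 345 counts per 1000000 UMIs (CPM) in the members of young sections 1 to 4 and at 407, 550, 458 and 408 CPM in those of aged sections 1 to 4. For Krt19 the members had 110, 178, 296 and 277 CPM in young sections and 539, 499, 398 and 274 CPM in aged ones. Lgals7 reached 98.0, 75.0, 197 and 207 CPM in young sections and 188, 366, 104 and 204 CPM in aged ones. Lhx9 had 50.5, 58.6, 127 and 57.0 CPM in young sections and 192, 254, 112 and 109 CPM in aged ones. Aged sections lay above all young sections for Upk3b, whereas the ages overlapped for the other 3 genes. Since the rule chose the spots by these genes, their levels carry no test.

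The genes went together in the same spots even when 1 of them was left out of the score. In the top 5% of spots by the other 3 genes, Upk3b had a mean of 343 ± 108 CPM against 13.7 ± 4.90 CPM elsewhere (SD, n = 8 sections), 25.1-fold as much. Chosen in the same manner, the spots had 23.1-fold as much Krt19, 20.7-fold as much Lgals7 and 27.9-fold as much Lhx9 as the rest. The left-out gene was higher in 8 of 8 sections in each case, and the smallest ratio in any section was 11.1, for Krt19. These sets shared between 84.1% and 95.7% of their spots with the members and are a description of the same tissue, not an independent sample.

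**Figure D1:**
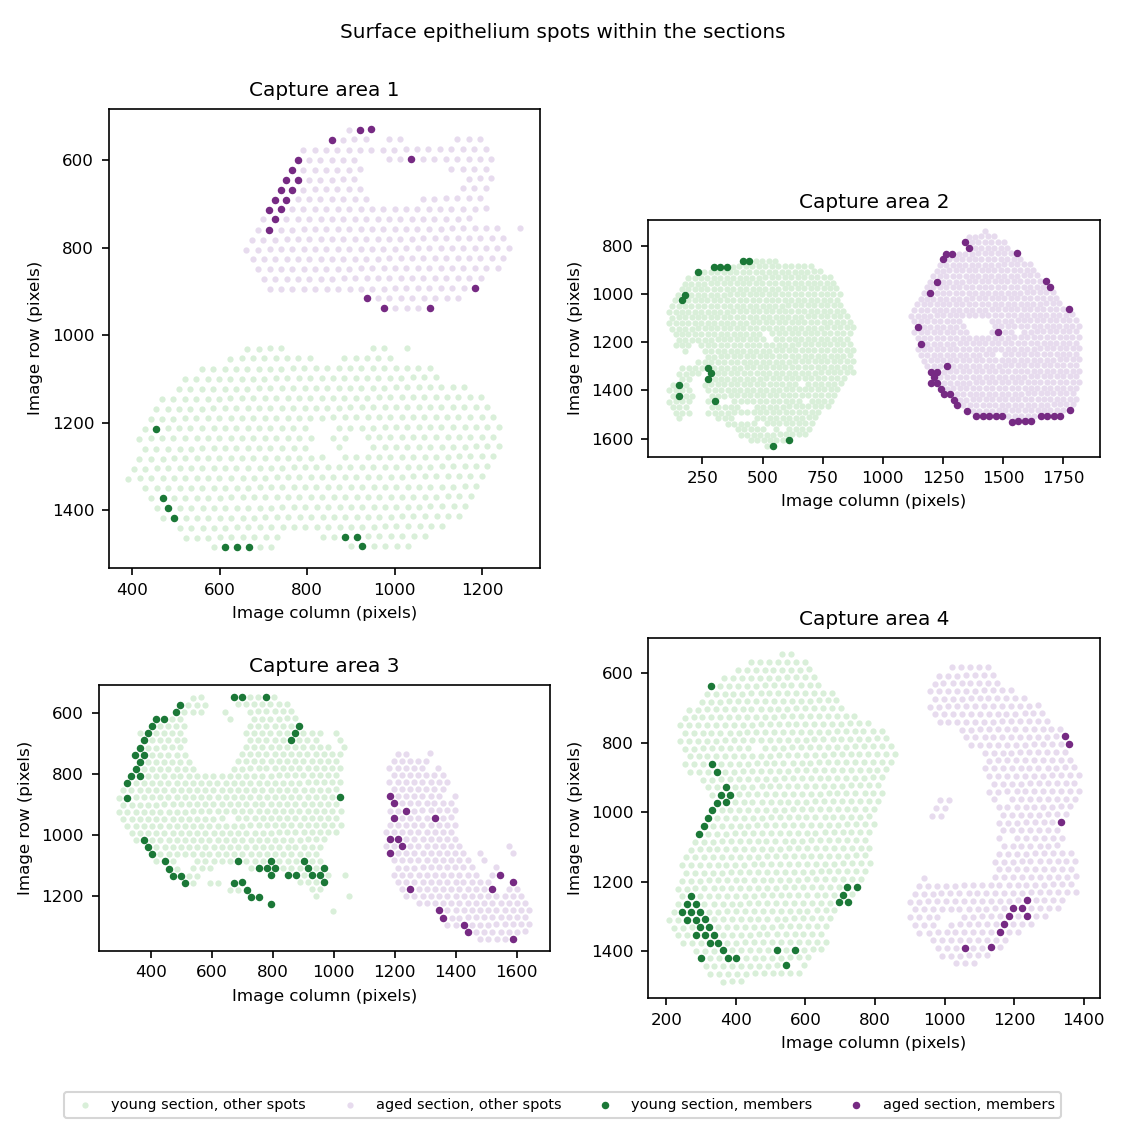
Positions of the spots with at least 1000 UMIs in the 4 capture areas, in image pixels, with members in dark and other spots in light colours (green for young, purple for aged sections). Of the 207 members, 135 lie on the rim of a section or of a gap within it, often in short chains.

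Members lay along the outlines of the sections. A spot was called a rim spot where at least 1 of the 6 array positions around it was not over tissue, which includes the edges of gaps inside a section. Of the members 135 were rim spots, 38 lay 2 spot steps from a position without tissue, 25 lay 3 steps, 8 lay 4 steps and 1 lay deeper. In all, 15.7% of rim spots and 2.20% of the spots farther in were members.

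The share of members at the rim was 60%, 75.0%, 80.4% and 27.5% in young sections 1 to 4 and 70%, 87.5%, 66.7% and 33.3% in aged sections 1 to 4. In other spots it was 16.5%, 17.9%, 21.7% and 14.1% in young and 30.5%, 6.40%, 26.8% and 30.5% in aged sections. Members thus exceeded other spots in 8 of 8 sections, by 42.0 ± 25.1 percentage points (SD; 2-sided exact sign-flip test over sections, p = 0.0078, the smallest that 8 sections allow). The excess was widest in aged section 2, at 81.1 points, and small in both sections of area 4, at 13.4 points in the young and 2.86 points in the aged one. In young section 4 the median member lay 2.5 steps from a position without tissue, against 1 step in young sections 1 to 3.

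**Figure D2:**
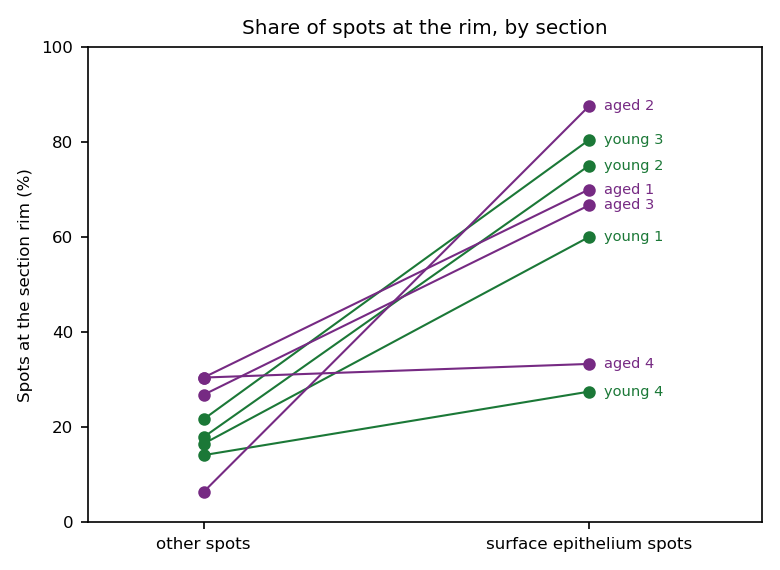
Share of spots at the rim (percent) for other spots and members, with 1 line per section (green for young, purple for aged). Every line rises, from between 6.40% and 30.5% to between 27.5% and 87.5%, and the sections of area 4 rise least.

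Members also adjoined one another. Of the spots next to a member, counted once for each member that they adjoined, 30.4 ± 12.8% were members themselves (SD, n = 8 sections). This exceeded the share of members in the section by 25.1 ± 11.8 points (exact sign-flip test, p = 0.0078). At full depth the excess was positive in 8 of 8 sections, lowest at 6.28 points in aged section 3. It was highest at 40.4 points in young section 4, where the largest connected group held 19 members.

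Surface genes were lower in the spots 1 step away than in members, and most were lower still farther out. The 4 rule genes summed to 1004 ± 363 CPM in members, 103 ± 29.8 CPM in the 420 spots 1 step away, 48.3 ± 16.7 CPM 2 steps away and 20.3 ± 9.15 CPM at 4 or more steps (SD over 8 sections). The first drop partly follows from the selection. Wt1, a gonadal and mesothelial transcription factor that the rule did not use, went from 229 CPM in members to 80.4, 65.5 and 52.6 CPM at 1, 2 and 3 steps and 44.0 CPM farther out. Angptl7 went from 278 to 45.2, 17.5, 12.9 and 7.14 CPM over the same steps. The order was not strict for every gene: Hsd17b2 was at 4.01 CPM 2 steps and 4.11 CPM 3 steps away, and Aldh1a2 at 61.4 CPM 3 steps and 70.6 CPM 4 or more steps away. The 12 fibroblast genes of a stromal list summed to 2374 ± 550 CPM in members, 2318 ± 732 CPM 1 step away and 1690 ± 450 CPM at 4 or more steps. Differences within sections between these steps were not tested. Genes of the corpus luteum, the progesterone-secreting body left after ovulation, went the other way, from 14303 ± 8361 CPM in members to 26410 ± 9003 CPM at 4 or more steps.

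**Figure D3:**
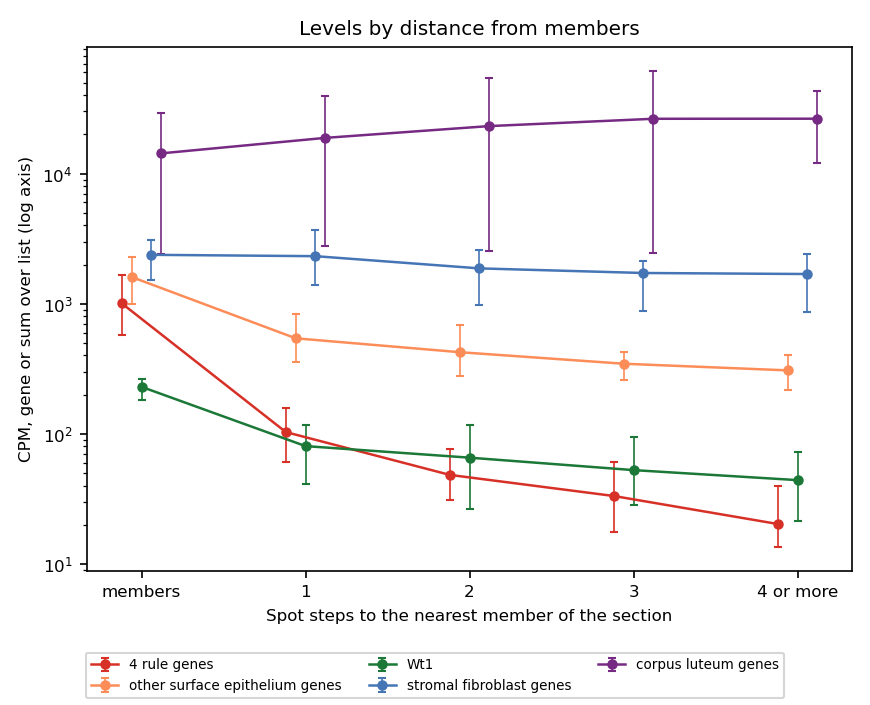
Mean CPM over 8 sections (log axis) against the number of spot steps to the nearest member, for the 4 rule genes, 20 other surface epithelium genes, Wt1, stromal fibroblast genes and corpus luteum genes, with bars from the lowest to the highest section. Surface genes are lower 1 step away, the means of stromal genes are close over the first step, and corpus luteum genes are higher farther away.

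Beyond the rule genes, a limited number of genes stood out in members, several of them epithelial. The rule drew on these spots and this contrast, so that the comparison of members with other spots is described by values and counts alone. Of 2045 genes with at least 10 counts in the members of each section, 21 (1.03%) were at least 2-fold higher in members in each section, the 4 rule genes included, and 0 (0%) were at least 2-fold lower. Without aged section 3 the former number was 32. Higher by any amount in every section were 168 (8.22%) and lower 223 (10.9%), and the median gene had a log2 ratio of -0.02. The minimum was set on counts in members alone, so that genes low in members tended to drop out. The numbers of higher and lower genes are therefore not like for like.

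Outside the rule, the gene with the largest mean log2 ratio was Angptl7, an angiopoietin-like secreted protein. The ratio used a pseudocount of 1 CPM, which lowers it for genes near 1 CPM in other spots, and without it the ranks can differ. Angptl7 itself had the following levels. It was at 199, 79.7, 303 and 255 CPM in members of young sections 1 to 4 and 228, 353, 372 and 438 CPM in those of aged sections, against 5.43 to 23.2 CPM in other spots. No section's other spots reached the lowest members. Hsd17b2, whose enzyme oxidises oestradiol and testosterone to less active steroids, ranged from 39.8 to 99.2 CPM in members and from 1.98 to 4.62 CPM in other spots. Muc16, the membrane mucin known as CA125, ranged from 14.8 to 69.2 CPM in members against 0.991 to 4.73 CPM.

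Lgals2, a galectin, had 69.2 to 376 CPM in members and 3.73 to 24.6 CPM in other spots. Upk1b, a uroplakin of the tetraspanin family, had a mean of 40.2 CPM against 1.35 CPM. For Bnc1, a zinc finger factor of epithelia and germ cells, the means were 36.8 and 1.65 CPM, with a range of 14.1 to 75.8 CPM in members. These genes did not overlap between members and other spots in any pair of sections.

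Adhesion and structure genes were among the 20 leading genes. Epcam, an epithelial adhesion protein, had 145 CPM in members and 12.2 CPM in other spots. Krt18, a keratin of simple epithelia, had 130 and 11.6 CPM. Crb2, of the apical polarity complex, had a mean log2 ratio that placed it on the same list, as had Tm4sf5, Pkhd1l1, Stk26, Prr15l, Pcnx2, Unc45b and Gpm6a. Cybrd1, a ferric reductase, had 91.0 and 7.02 CPM.

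Rspo1, a ligand that strengthens Wnt signals, was found at 94.4 CPM in members and 8.93 CPM in other spots. Gbp2, an interferon-inducible GTPase, was at 302 and 28.6 CPM, while its near copy Gbp2b was also on the list. Reads that match both near copies cannot be assigned to either with certainty, so that their separate levels are uncertain.

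**Figure D4:**
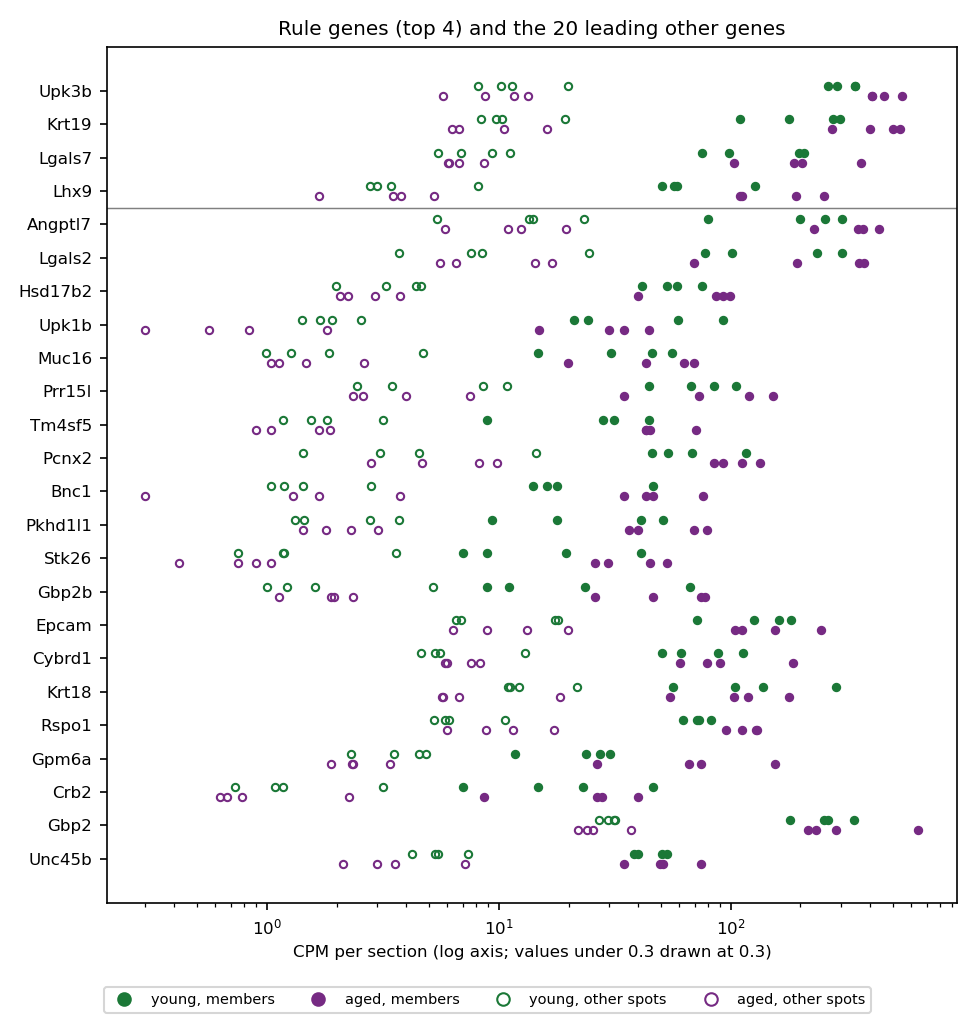
CPM per section (log axis) of the 4 rule genes and the 20 other leading genes, with filled points for members and open points for other spots, green for young and purple for aged sections. For Upk1b, Muc16, Bnc1, Angptl7 and Hsd17b2 all filled points lie to the right of all open points.

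Of 20 further surface epithelium genes on a list, 16 were higher in members in every section. Over all genes with at least 10 counts in each section, a minimum that 7 of these 20 reached, the share was 8.22%. The list summed to 1603 ± 445 CPM in members and 351 ± 73.0 CPM in other spots (SD, n = 8). Besides those above, the 16 genes included Wt1, Ezr, which links membrane and actin, and Aldh1a2, which makes retinoic acid (184 CPM against 72.6 CPM). Upk3bl alone went the other way, with no count in any member and 0.421 CPM in other spots. Many of these genes are also known from mesothelium, so that they do not tell the surface epithelium from it, and the list was drawn up with earlier results known. Of 20 genes of epithelial junctions and polarity, 3 (Cldn3, Cldn10 and Cldn15, all claudins) were higher in members in every section, with a median log2 ratio of 0.23 over the list, of which 0 genes reached the minimum of 10 counts in each section.

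Gonadal transcription factors were split. Of 14 on the list, 4 were higher and 1 was lower in members in every section. Over all genes with at least 10 counts in each section, a minimum that 4 of these 14 reached, the shares were 8.22% and 10.9%. Wt1 had 240, 188, 222 and 182 CPM in members of young sections 1 to 4 and 258, 249, 234 and 264 CPM in those of aged sections, against 30.8 to 69.6 CPM in other spots, so that its groups stood apart. Emx2, a homeobox factor of the urogenital ridge, was at 53.3 CPM in members and 9.45 CPM in other spots, and Nr0b1 at 26.2 and 5.73 CPM, both higher in 8 of 8 sections. By contrast, Foxl2, the granulosa cell factor, was at 85.8 and 81.0 CPM, and Nr5a1, the regulator of steroid enzymes, at 158 and 170 CPM, each higher in 4 sections and lower in 4.

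Of 26 growth factor and receptor genes, 8 were higher in members in every section. The share of 8.22% over all genes is no like-for-like background for the lists, since it covers genes with at least 10 counts in each section, as only 4 of these 26 had. Igfbp5, which binds insulin-like growth factors, was at 680 CPM in members and 84.6 CPM in other spots, and Igfbp6 at 518 and 206 CPM. Mdk, the growth factor midkine, was at 324 and 183 CPM. The other 5 were Tgfb3, Kitl, Fgf2, Erbb2 and Erbb3. Of the 26 genes, 2 were lower in every section, against 10.9% of all genes with the 10-count minimum. Vegfa, the main growth factor of vessels, was among them, at 39.1 against 71.0 CPM.

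Of 16 complement and antimicrobial genes, 6 were higher in members in every section. The share was 8.22% over all genes with the 10-count minimum, which 6 of these 16 reached. The list sum was higher in 6 of 8 sections and lower in young section 1 (2194 against 2616 CPM) and young section 4 (3559 against 3615 CPM). C3, the central complement protein, was at 148, 370, 629 and 176 CPM in members of young sections 1 to 4 and 324, 872, 632 and 358 CPM in those of aged sections, against 36.7 to 169 CPM in other spots. Young section 1 alone had members within the range of other spots. Serping1, an inhibitor of the first complement step, was at 431 CPM against 131 CPM, C1s1 at 154 against 54.5 CPM, and Cd55, which protects cell surfaces from complement, at 46.7 against 15.0 CPM.

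In the Wnt group, Rspo1, Axin2, Dkk3 and Lef1 were higher in every section, 4 of 19 genes. The 10-count minimum behind the 8.22% over all genes was reached by 3 of these 19. Axin2, a target and brake of Wnt signals, was at 29.7 CPM in members and 11.6 CPM in other spots. Sfrp4, a secreted Wnt inhibitor that is abundant in corpora lutea, was lower in every section, at 2110 against 3865 CPM, as was the receptor Lgr4. Of 13 genes of retinoid biology, 3 were higher in every section, Aldh1a2 and Rarres2 among them, and 5 reached the 10-count minimum. Aldh1a1 was at 828 and 786 CPM, higher in 4 sections and lower in 4.

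Several steroid-making genes were lower in members, and in bulk sums of spots fewer cells of a type and less RNA per cell cannot be told apart. Of 11 corpus luteum genes 8 were lower in every section, among them Star, which brings cholesterol into mitochondria, with 330, 1456, 3314 and 701 CPM in members of young sections and 721, 3248, 1237 and 1995 CPM in those of aged sections. Other spots of the same sections had 2934, 3546, 5668 and 1790 CPM, and 1519, 5824, 1820 and 2278 CPM. The range over sections was wide and overlapped, while each section had less Star in its members. Of 9 theca genes 4 and of 15 granulosa genes 4 were lower in every section, the latter being Fst, Hsd17b1, Gja1 and Bex4, whereas Amhr2, the receptor of anti-Müllerian hormone, was higher in 7 of 8 sections at 235 against 110 CPM. Over all genes with the 10-count minimum, the share lower in every section was 10.9%. That minimum, set on members alone, was reached by 9 of the 11 corpus luteum, 6 of the 9 theca and 6 of the 15 granulosa genes.

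Other cell types were present to a varying extent. The oviduct list of 14 genes summed to 293 ± 384 CPM over the members of 8 sections, between 36.4 and 1125 CPM, with young section 2 highest and young section 3 and aged section 3 at 466 and 467 CPM. In 12 members, 2 of young section 2, 7 of young section 3 and 3 of aged section 3, oviduct genes had more UMIs than the rule genes. Foxj1, the factor of ciliated cells, was higher in members in 4 sections and lower in 2, and Krt5 was at 0 in all spots. The part of these genes in the results was not tested. Mitochondrially encoded UMIs made up 1.82 ± 0.429% of the UMIs of members in young and 3.04 ± 1.67% in aged sections, against 1.09 ± 0.575% and 2.00 ± 0.817% in other spots.

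The share of spots that were members did not differ beyond the spread between sections. Members made up 1.89%, 2.19%, 9.53% and 5.26% of spots in young sections 1 to 4 (10, 16, 51 and 40 spots) and 6.69%, 6.31%, 7.23% and 3.03% in aged sections 1 to 4 (20, 40, 18 and 12 spots). The means were 4.72 ± 3.55% in young and 5.81 ± 1.89% in aged sections (SD, n = 4 each; difference 1.10 points, 2-sided exact permutation test, p = 0.657, with 0.0286 the smallest possible). Young section 3 had the highest share of all, so that the ages overlapped entirely. With all spots thinned to 5000 UMIs, which left out 100 young and 233 aged spots of lower depth, the shares were 5.16 ± 4.07% and 5.06 ± 1.83% and the direction turned. Without both sections of area 3 the difference was 2.23 points (exact permutation test, p = 0.2). The direction also turned, to -0.268 points, when members needed at least 5 rule UMIs, a setting chosen after seeing the data.

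Within members, no gene passed the test between ages. Summed counts of the members of 8 sections were compared by edgeR's quasi-likelihood test, and 0 of 6574 genes (0% in either direction) had a Benjamini-Hochberg adjusted p under 0.05, with the lowest at 1.00. At an unadjusted p under 0.05 there were 190, and DESeq2 gave 0 adjusted and 133 unadjusted. The unadjusted number was 499 without young section 3 (lowest adjusted p = 0.156, edgeR), 342 without aged section 3 (0.784) and 590 without both sections of area 3 (0.105), with 0 genes passing in each case. Without the filter on low counts 65 genes passed. All aged sections lay above all young ones for 54 genes (0.821%) and below for 62 (0.943%). The values below are of the genes with the lowest p in each direction and of the lists, and they are not calls.

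Among the genes higher in aged members, Nrgn, a calmodulin-binding protein, had 11.9, 21.1, 23.01 and 21.3 CPM in young sections and 39.7, 46.1, 43.3 and 64.7 CPM in aged ones (log2 difference 1.24 ± 0.30 SE). Its ages did not overlap. Pnpla8, a phospholipase, had 33.3 ± 3.99 CPM in young sections and 61.0 ± 5.88 CPM in aged ones (SD, n = 4 each) and did not overlap either. The haemoglobin gene Hbb-bs had the lowest p, with 43.6 ± 21.3 CPM in members of young sections and 184 ± 143 CPM in members of aged ones, which overlapped. In aged section 2, Hbb-bs was at 222 CPM in the 35 rim members and 2846 CPM in the few members farther in. Fabp4, a fatty acid carrier of adipocytes and vessels, was at 11.6 ± 10.7 and 59.97 ± 42.1 CPM. Cldn15, a claudin of epithelial junctions, was at 35.5 ± 14.0 and 81.8 ± 35.7 CPM. Counts of Hbb-bs and its near copy Hbb-bt cannot be told apart with certainty.

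Among the genes lower in aged members, Alas1, the first enzyme of haem synthesis, had 137, 136, 154 and 132 CPM in young sections and 69.4, 36.3, 77.9 and 99.5 CPM in aged ones (log2 difference -1.09 ± 0.28 SE). The young sections were close together and all above the aged ones. Dnmt1, which copies DNA methylation onto new strands, was at 62.2 ± 26.1 and 22.5 ± 5.34 CPM and did not overlap. Bex1 was at 80.8 ± 32.9 and 30.5 ± 13.1 CPM without overlap, and Ptgis, the prostacyclin synthase, at 133 ± 66.6 and 55.8 ± 24.7 CPM with overlap.

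**Figure D5:**
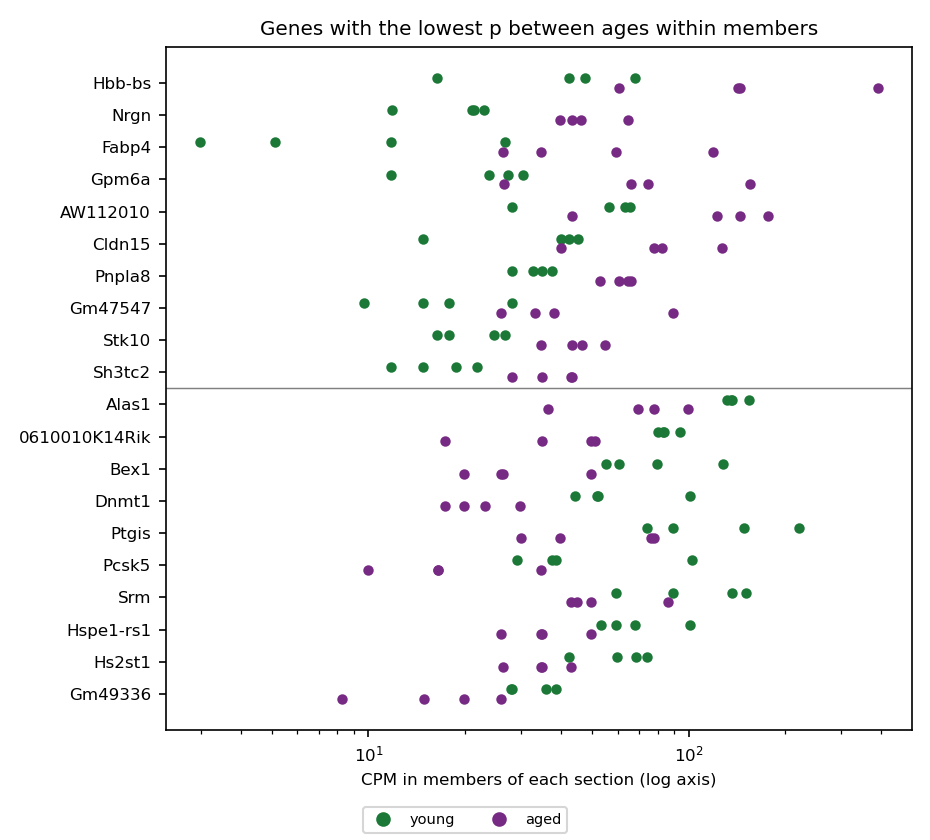
CPM in the members of each section (log axis) for the 10 genes with the lowest p in each direction between ages, 1 point per section (green young, purple aged). The ages are separate for Nrgn, Pnpla8, Alas1 and Dnmt1 and overlap for Hbb-bs, and 0 of 6574 genes passed the adjusted threshold.

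Of the leading genes of members, Rspo1 had ages that did not overlap, with 62.3, 72.7, 82.4 and 71.5 CPM in young sections and 129, 95.6, 112 and 129 CPM in aged ones (log2 difference 0.66 ± 0.21 SE). Among rim members alone its log2 difference was -0.00511. Gpm6a, a membrane glycoprotein, was at 23.2 ± 8.14 and 80.7 ± 54.2 CPM, highest in aged section 3 at 156 CPM. Wt1 was at 208 ± 27.8 and 251 ± 13.1 CPM. Krt18 was at 146 ± 98.7 and 114 ± 50.8 CPM, with young section 4 highest at 285 CPM.

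The lists showed no passing gene by age, and their counts are set beside all genes, of which 3095 of 6574 were higher in aged members (median log2 difference -0.02). Surface epithelium genes outside the rule were higher in 11 of 16 (median 0.24), and in 15 of 16 (0.47) without young section 4 or 9 of 16 (0.06) without aged section 2. The rule score of members was also higher on average in aged sections (values above), and its part here was not tested. Mitochondrially encoded genes were higher in 10 of 10 (median 0.83) with all sections, and the median was 0.29 without aged section 3, whose mitochondrial share was highest. Corpus luteum genes were higher in 10 of 10 (median 0.42) and macrophage genes in 7 of 7 (median 0.73). Among rim members alone these were 5 of 10 (median -0.00525) and 6 of 7 (median 0.07), and without young section 1 the corpus luteum median was 0.0455. The lowest macrophage sum in the members of any section, 260 CPM, was that of aged section 3. Major histocompatibility class I genes, which present peptides to T cells, were higher in 9 of 10 (median 0.54), H2-K1 with 467 ± 185 and 886 ± 434 CPM. The sums of the whole class I list overlapped, at 1342 to 3033 CPM in young members and 1635 to 5498 CPM in aged ones. Of the aged sections, section 4 was highest and section 3 lowest. Smooth muscle genes were lower in 10 of 10 (median -0.82, or -0.37 without young section 4), Acta2 with 516 ± 317 and 268 ± 112 CPM, and basement membrane genes in 13 of 16 (median -0.26), among which Col4a2 was at 289 ± 43.2 and 199 ± 31.6 CPM without overlap. Of 10 fibroblast genes 8 were lower (median -0.19). With age, the mean sums of these lists moved the same way in other spots, except for surface epithelium genes (378 to 323 CPM). Smooth muscle sums there went from 1370 to 963 CPM and basement membrane sums from 1924 to 1602 CPM. Mitochondrially encoded sums there went from 10860 to 19951 CPM and class I sums from 1727 to 2192 CPM. The ages overlapped in each case. For whole lists, a departure of members from other spots was not tested.

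Whether the difference between ages in members departed from that in other spots was tested as an interaction, and 0 of 12085 genes (0% in either direction) passed (776 at an unadjusted p under 0.05; lowest Benjamini-Hochberg adjusted p = 0.125, edgeR). The lowest was for Slpi, a secreted protease inhibitor, a gene of the protease list (log2 interaction -3.62 ± 0.66 SE). In members it had 4.69 to 30.3 CPM in young sections and 3.31 to 23.1 CPM in aged ones, while in other spots aged section 2 had 56.8 CPM and the remaining sections at most 5.41 CPM. Next came Gpm6a, with an interaction of 2.12 ± 0.42 SE. It was called by DESeq2, the single gene called by that tool, whereas edgeR gave it an adjusted p of 0.154. With 1 section left out, 4 genes passed without aged section 3, 2 without aged section 1, and 1 each without aged section 4 and young section 2.

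Members at the rim and members farther in were compared within the 5 sections with at least 5 of each, young 3 and 4 and aged 1, 2 and 3. No gene of 2996 passed (0% in either direction; 140 unadjusted, lowest adjusted p = 0.370, edgeR). Tspan8, a tetraspanin of epithelial membranes, was at 65.2, 78.3, 110, 113 and 126 CPM in rim members of these sections and 29.5, 36.3, 33.3, 0 and 55.2 CPM in members farther in (log2 difference 1.40 ± 0.31 SE). The positions did not overlap, and the rim was higher in 5 of 5 sections. Tspan8 was not alone in this. Kcnab1 and Atp6ap2 were also higher at the rim without overlap, and Fam168b was lower there without overlap. In aged section 2, 35 of 40 members were rim members, and in aged section 3, 12 of 18. The values farther in thus came from few spots there, 0 and 55.2 CPM among them. How many of the 2996 genes did not overlap is not given here. Immediate early genes, which respond within minutes to stimuli and to tissue handling, were higher at the rim in 6 of 8 (median 0.45, against 0.01 for all genes), 4 of them at an unadjusted p under 0.05 (edgeR). Fos was at 168 ± 160 CPM at the rim and 90.7 ± 90.5 CPM farther in, and Junb at 116 ± 55.9 and 65.6 ± 46.5 CPM, both higher in 5 of 5 sections with overlapping ranges. Surface epithelium genes outside the rule were higher at the rim in 3 of 8 (median -0.09), and none of these 8 passed the test.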

How the data were processed

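UMI counts per gene and spot were deposited as raw counts with no normalization, as whole numbers with differing totals show. Per the submitters' processing notes they were made with Space Ranger 1.2.1 on mm10, and the deposited position tables give array and pixel positions. Of 4263 positions marked as over tissue, 72 lacked a table column. The sections of an area were separated where the positions left their widest gap (searched in the central 60%), with low pixel rows as top and low columns as left. The files do not show whether an image was rotated relative to the labels, which would swap its ages, and area 3 was the one in doubt from earlier results of these data. All comparisons were therefore repeated without it.

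The members and the 31 gene lists were chosen with earlier results of these data known. Counts were summed over the members of a section (at least 10), and CPM are per 1000000 UMIs of that sum. edgeR 4.0.16 (quasi-likelihood test, TMM scaling, default filter on low counts, Benjamini-Hochberg adjustment at 0.05) was the main test and DESeq2 1.42.0 an alternative, with rule genes left out of all calls. Shares were compared by exact permutation or sign-flip tests (scipy 1.17.1). The scripts were tested on simulated data. Log2 ratios of members to other spots used a pseudocount of 1 CPM. Named genes were the rule genes, the 20 others with the largest mean log2 ratio at 20 CPM or more, listed genes, and the 10 with the lowest p in each direction. Genes named outside these rules (Fst, Hsd17b1, Bex4, Lgr4, Vegfa, Upk3bl and the like) belong to the lists and were chosen after their values were seen.

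Sections of an area share its library, per the labels, so that the area number pairs them. Correlations of their deviations across genes were 0.183, 0.240, -0.0375 and 0.0980. With the area as a replicate block 0 genes differed by age (345 unadjusted, lowest adjusted p = 0.335), and the share of members gave p = 0.625 (exact sign-flip test over the 4 area pairs, smallest possible 0.125). No doublet caller was run. Depth limits what could be detected, and intervals over sections cover their spread only. Image scale factors were not used.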

Additional observations from a re-analysis of the deposited data

Results flagged for a closer look

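Each group examined here holds the 4 sections of 1 age, so that highest, lowest and next are within that age. Of 144 groups, 11 held a section whose gap to its nearest neighbour, over the range of the group, was above Dixon's 95% critical value, and chance flags about 1 in 20 such groups. In members of young section 3, Lhx9 was at 127 CPM (58.6 in the next section), Bnc1 at 46.0 CPM (next 17.8) and the summed class I histocompatibility genes at 3033 CPM (next 1621). In members of aged section 2, Tm4sf5 was at 70.9 CPM (next 44.8) and Gbp2 at 644 CPM (next 284). Members of aged section 3 had the highest oviduct sum, 467 CPM (next 70.9), the highest cell cycle sum, 753 CPM (next 370.3), and the lowest T and NK cell sum, 8.65 CPM (next 72.7). The granulosa sum was highest in young section 1 at 4441 CPM (next 2157), the protease and inhibitor sum in young section 4 at 4909 CPM (next 3017), and the Wnt and R-spondin sum in aged section 4 at 6090 CPM (next 2543).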

How the results depend on the processing

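The excess at the rim ranged from 36.4 to 47.6 points and the adjacency excess from 22.9 to 27.8 points with 1 section left out. For the top 2.5% of spots, where 4 sections had enough members, they were 47.4 and 29.0 points, each with the smallest p that 4 sections allow in the exact test, 0.125. The age difference in the share of members was -0.0966 points after thinning and -0.268 points with at least 5 rule UMIs (added after seeing the data), and 0.154 to 2.70 points with 1 section left out, highest without young section 3. Genes by age numbered 65 without the filter on low counts (Hbb-bs, Alas1, Fabp4 and Gpm6a among them) and 0 with 1 section left out (160 to 499 unadjusted, most without young section 3), without area 3 (590 unadjusted), by DESeq2, with other scaling or with the replicate block. Genes by rim position numbered 6 without the filter, Tspan8 among them, 19 with the rim taken as 2 steps (2 sections could be used), and 0 with 1 section left out. Interaction genes numbered 42 without the filter, 1 by DESeq2, 6 without area 3, 4 with at least 5 rule UMIs, and 0 to 4 with 1 section left out (2 without aged 1, 4 without aged 3, 1 without aged 4, 1 without young 2). Genes at least 2-fold higher in members numbered 33 without area 3, 32 with at least 5 rule UMIs, and 21 to 32 with 1 section left out (32 without aged section 3); fewer sections make this criterion easier to meet. For the other changes the cause was not tested. Directions by age turned for Upk1b (-1.03 to 0.0116 with 1 section left out, highest without young section 4, and 0.0655 in rim members), Krt18 (-0.74 to 0.25, likewise, and 0.35), Epcam (-0.23 to 0.37), Cybrd1 (-0.0768 to 0.70) and Gbp2 (-0.14 to 0.65), each lowest without aged section 2, Crb2 (-0.00627 to 0.32, lowest without aged section 4) and Rspo1 (-0.00511 in rim members). By rim they turned for Ier2 (-0.15) with the top 5% of each section, and for Adsl (0.0327) and Hao2 (0.10) with the wider rim. None of these had passed. Among the values of named genes, 670 by age, 262 by rim and 446 for leading genes kept their direction and side of the threshold or moved by less than 1 SD. The depth of aged section 3 and the 10 to 51 members per section limit what could be detected.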
